A study of Mus musculus with 31 samples.

Results

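CD8 single positive (SP8) thymocytes were compared between neonatal and adult mice. They were taken by their sample labels, as the 4 neonatal and 4 adult libraries of this cell type, which made 8 of the 31 RNA-seq libraries of the series. They are described over 16461 genes that passed a filter on low counts in the series as a whole, not in SP8 cells alone. All mice were C57BL/6, an inbred laboratory strain, with no further genotype or treatment in the labels; adults were 12 weeks old and neonates 5 to 7 days. Thymocytes left after removal of CD4-bound cells were enriched for CD8a with magnetic beads and then sorted by flow cytometry as SP8 cells, so CD4 and CD8 define the cells, and no gate on the antigen receptor is given for them in the labels. The other 23 libraries were of double negative (DN) and double positive (DP) thymocytes and of naive CD8 T cells of the spleen (called splenic CD8 here), at the same ages. The question put by the design is how expression in developing thymocytes changes between neonates and adults.

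SP8 thymocytes are the last step of CD8 T cell development in the thymus. A DP cell whose antigen receptor binds a self peptide on MHC class I weakly is kept (positive selection), stops making CD4, turns off the Rag recombinase, and moves from the cortex to the medulla by way of the chemokine receptor CCR7. It then gains IL-7 receptor, KLF2 and S1PR1 and leaves for the blood, and CD69 marks the recently selected cell that has not yet left. Another, earlier kind of CD8+ CD4- thymocyte also exists, the immature single positive cell, which lies between DN and DP and divides rapidly, and a gate on CD4 and CD8 alone holds both kinds.

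The labelled cell type was checked on its markers, with values in CPM (read counts per 1000000 counts of the library, scaled by TMM and comparable between libraries for 1 gene, not between genes). Cd8b1, the CD8 beta chain, was at 944, 1137, 773 and 922 CPM in adult replicates 1 to 4 and at 615, 576, 589.8 and 611 CPM in neonatal replicates 1 to 4. Ccr7 was at 362, 413, 292 and 371 CPM in adults and 247, 209.7, 234 and 222 CPM in neonates. Cd69 was at 58.5, 64.3, 47.9 and 49.7 CPM in adults and 31.3, 37.0, 32.7 and 27.0 CPM in neonates. All 3 markers were present in every library, and for each of them the lowest adult library lay above the highest neonatal one. Cd4 stood at 6.68, 4.86, 6.70 and 7.76 CPM in adult and 11.8, 12.4, 9.60 and 14.2 CPM in neonatal SP8, against a mean of 1679 CPM in adult and 1623 CPM in neonatal DP cells. Zbtb7b, which encodes the CD4 lineage factor ThPOK, was under 1 CPM in both groups (means 0.362 and 0.197 CPM).

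Library totals ran from 15653829 to 23054677 counts, at which 3 counts, taken as the detection floor, equalled 0.136 to 0.197 CPM. On the first principal component of the 8 libraries, which held 67.9% of the variance of the 1000 most variable genes, every neonatal library lay on one side and every adult library on the other. Adult replicate 1 stood apart in its Y-linked genes, with Eif2s3y at 1.17 CPM against 44.4 to 81.7 CPM in the other 7 libraries, while Xist was at or under the floor in that library too. The labels do not give the sex of the mice. Results were therefore also computed without adult replicate 1 at every stage. The replicates are described as biological, without saying whether each is 1 mouse or a pool, so the p-values measure the spread between these libraries.

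Neonatal and adult SP8 cells differed in 6845 of 16461 genes, 41.6% of those tested (edgeR quasi-likelihood test, Benjamini-Hochberg adjusted p below 0.05, the sense in which a gene is said to rise, fall or be called here). Of all tested genes, 20.8% were higher and 20.8% lower in neonates, and 10.8% were called with a change of 2-fold or more (4.26% higher, 6.58% lower). Most changes were therefore small, with a median absolute log2 fold change of 0.580 among called genes. The neonatal and adult libraries did not overlap for 37.7% of all tested genes. Of the tested genes 995 were at or under the floor in SP8 cells of 1 or both ages. With the filter and fit on the SP8 libraries alone, 6466 of 13512 genes were called. The kinds of gene were called unevenly: 48% of 12709 protein-coding genes (3245 higher, 2859 lower) but 22.7% of 2335 long non-coding genes, of which 84 were higher and 445 lower in neonates. In simulated counts with these library sizes, every gene started from 1 mean over all stages and ages, and 200 genes were changed. There the test recovered 61.3% of genes changed 1.5-fold, 71.9% of genes changed 2-fold and 87.9% of genes changed 4-fold (n = 62 to 66 genes of each size among 15653 tested). Far more genes were called in the data than were changed in the simulation, so these shares need not hold for the data.

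Markers of other cells were summed per library. The DP list ran from 1212 to 1618 CPM in adults and from 1475 to 1648 CPM in neonates, with 7 of its 12 genes higher and 3 lower in neonates. The list of the immature single positive and pre-TCR steps ran from 1093 to 1301 CPM in adults and from 1375 to 1469.8 CPM in neonates, without overlap. Of its 14 genes 10 were higher and 1 lower. Notch1, Tfrc and Myc led this sum, and Notch1 overlapped between the ages (280 to 410 CPM in adults, 408.6 to 496 CPM in neonates). Ptcra was a small part of it (15.4 to 22.2 CPM in adults, 31.1 to 39.7 CPM in neonates). Gamma-delta T cell markers were higher in neonates as a sum (243 to 252 against 85.8 to 136 CPM). Myeloid and dendritic markers were lower as a sum (17.4 to 23.7 against 40.9 to 64.9 CPM), which Cd74 and H2-Ab1 led. Of its 17 tested members 6 were called lower, 1 higher and 10 not. The share called, 41.2%, was near the 41.6% of all tested genes. Cd68 overlapped between the ages (2.96 to 4.82 CPM in adults, 3.62 to 4.23 CPM in neonates). Fcgr3 was at most 0.263 CPM in adults and at 1.03 to 1.49 CPM in neonates. The CD4 lineage list had 45.2 to 54.4 CPM in neonates and 69.3 to 92.6 CPM in adults, most of it Izumo1r, while Cd4 itself was higher in neonates (above), and 2 of its 8 genes were called higher and 3 lower. The NK and NKT, B cell, erythroid and stromal lists had defining genes at or under the floor in all 8 libraries: Ncr1 for NK cells, Ms4a1 for B cells, the beta globins Hbb-bs and Hbb-bt for erythroid cells, and Foxn1 and Pdgfra for stroma. Other members were above it: Cd79a of the B cell list at 0.770 to 2.15 CPM, and Hba-a1 in adult and neonatal replicate 4 (0.261 and 0.379 CPM). Igkc, the kappa light chain, was at 7.56 CPM in adult replicate 4 and at most 0.108 CPM in the other 7 libraries; without adult replicate 4, 3280 genes were called higher and 3261 lower in neonates. Lyz2, Adgre1, C1qa, S100a8 and S100a9 of the myeloid list were at or under the floor as well. The NK and NKT sum was 22.6 to 31.2 CPM in adults and 27.4 to 39.8 in neonates, most of it Eomes. The B cell sum of 272 to 345 against 395 to 421 CPM was mostly Ighm, whose locus is transcribed in thymocytes too. Erythroid sums did not exceed 13.3 CPM in any library, and the stromal sum was 132 to 167 CPM in adults and 109 to 128 in neonates, most of it Pecam1.

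**Figure D1:**
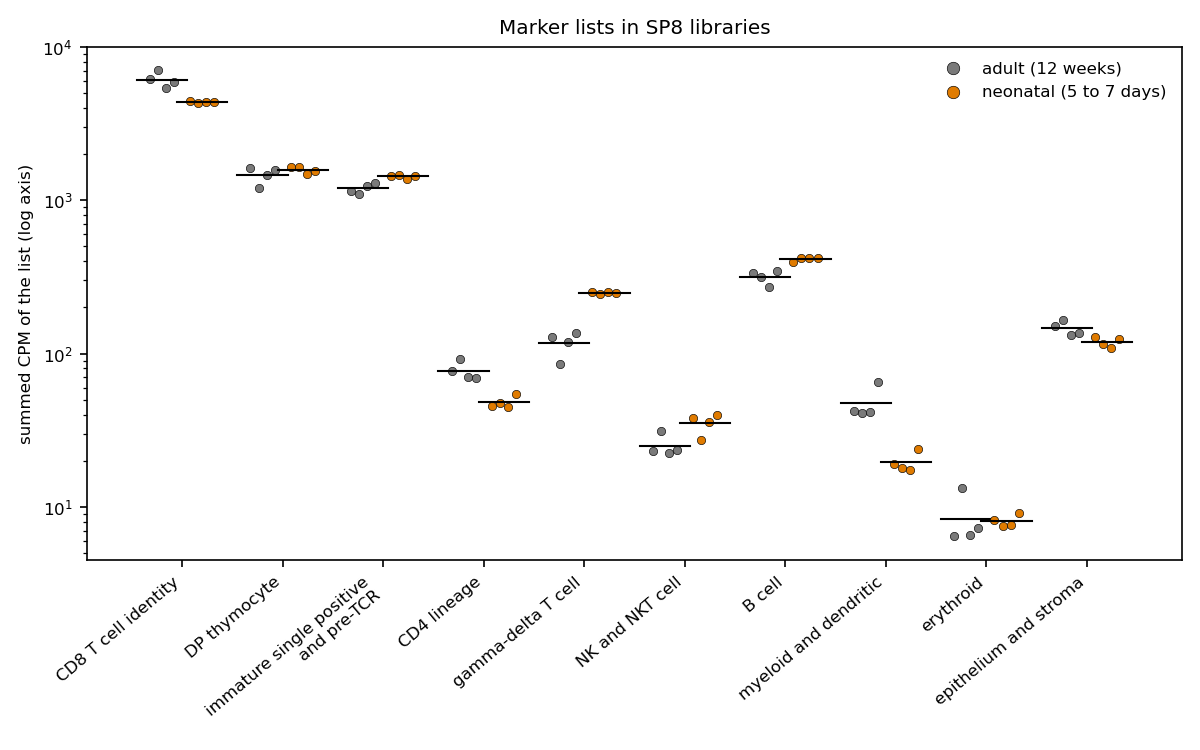
Summed CPM of marker lists in each of the 8 SP8 libraries (log axis, 1 point per library, adult in grey and neonatal in orange; horizontal bars are group means). The pre-TCR and gamma-delta sums are higher and the myeloid sum lower in all 4 neonatal libraries than in any adult library.

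The lists described next are genes of 1 pathway or step each, and their level in a library is given as the mean over members of log2(CPM + 0.5) minus the mean of the gene over the 8 libraries, without members at the floor in both groups. By this measure adult replicate 2 stood apart from the other adults in several lists. Its cell cycle list was at -0.84, where the other adults were at -0.36 to -0.27 and the neonates at 0.42 to 0.47. Its cholesterol list was at -0.64 against -0.34 to -0.20 in the other adults, its DP list at -0.55 against -0.13 to 0.04, and its mature SP8 list at 0.51 against 0.18 to 0.34. In each of these 4 lists it lay on the side of the other adults that was away from the neonates. Over all tested genes 20.8% were called higher and 20.8% lower in neonates, the shares beside which the list counts below stand. Where a list is said below to have 0 members called in one direction by edgeR, 0 passed in that direction at an unadjusted p below 0.05 and 0 with DESeq2. Without adult replicate 2, 3299 genes were higher and 3155 lower in neonates, the cell cycle list still had 45 and the cholesterol list 19 members higher, and the mature SP8 list 12 lower.

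**Figure D2:**
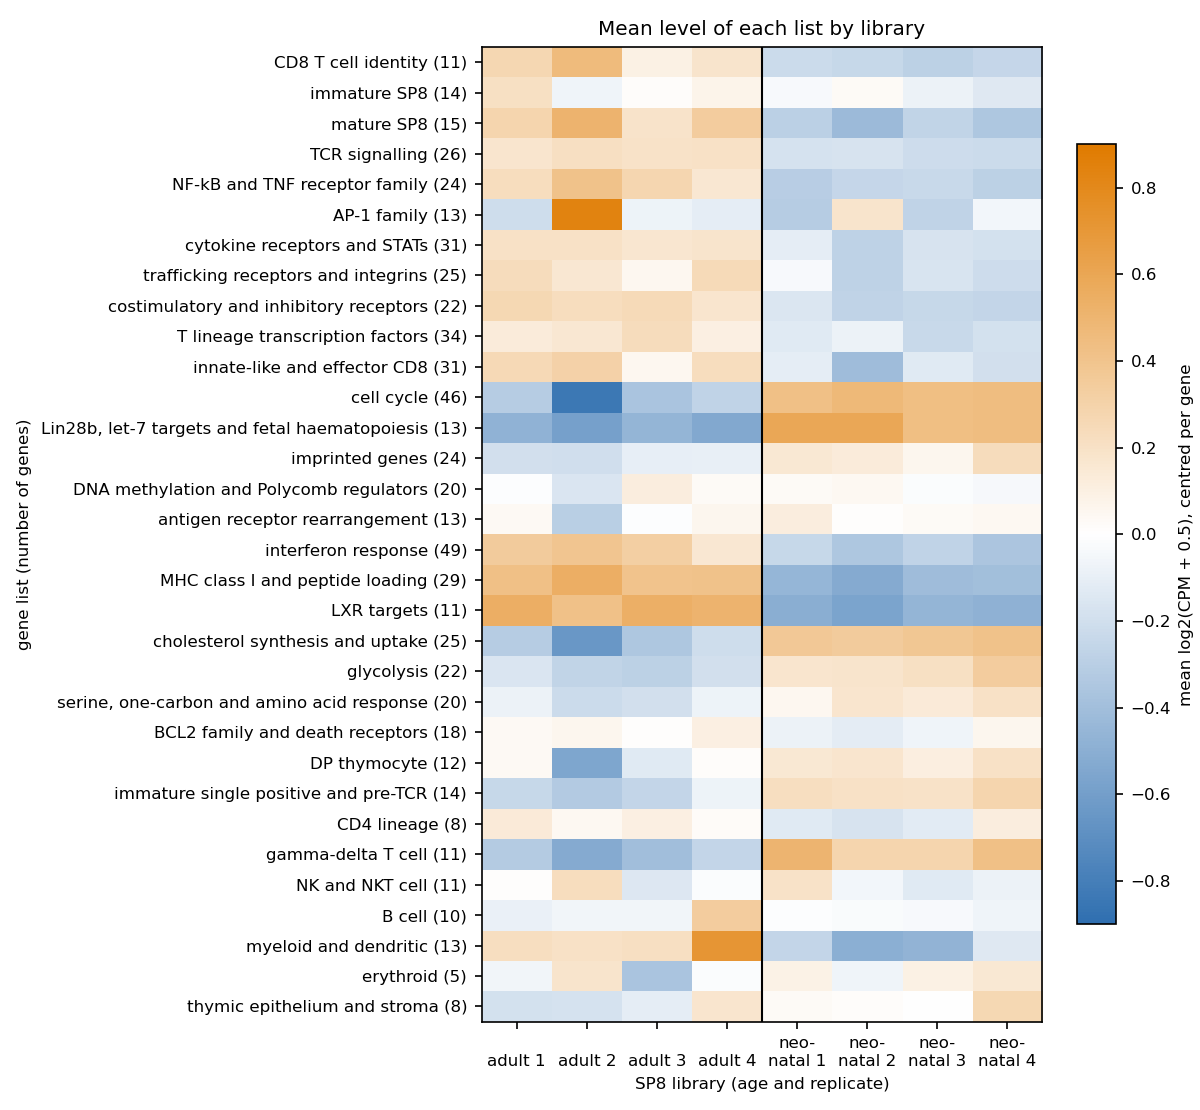
Mean log2(CPM + 0.5) of each gene list in each SP8 library, centred on the mean of the 8 libraries gene by gene (blue lower, orange higher). The neonatal libraries resemble each other, and adult replicate 2 has the lowest cell cycle and cholesterol values and the highest AP-1 value.

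Genes of the CD8 T cell surface and of antigen receptor signalling were lower in neonates almost without exception. All 11 genes of the identity list fell (values are log2 fold changes, neonatal minus adult, from 4 libraries each, with their SE), among them Cd8a (log2 -0.32, SE 0.08), Cd8b1 (log2 -0.66, SE 0.10), Cd3e (log2 -0.61, SE 0.12), Cd247 (log2 -0.49, SE 0.07), which encodes the CD3 zeta chain, and Runx3 (log2 -0.36, SE 0.10), the factor that silences Cd4. The median of the list was -0.44 against -0.02 over all tested genes. Itgae, the integrin chain CD103 that binds E-cadherin on epithelium, fell furthest, from 533, 592, 485 and 504 CPM in adults to 252, 216, 206 and 228 CPM in neonates. Its groups were well apart (log2 -1.23, SE 0.14, adjusted p = 1.54e-08). Of 26 TCR signalling genes 23 fell and 0 rose, with a median of -0.36 and no change of 2-fold. Ptpn22, a phosphatase that restrains receptor signals, fell by 0.81 on the log2 scale, the adaptor Grap2 by 0.70 and the kinase Fyn by 0.66. Lck, the kinase that starts the signal, fell by 0.20 (edgeR adjusted p = 0.0204), a fall near the threshold that was not called with no filter on low counts or without adult replicate 4 (-0.18) or neonatal replicate 2 (-0.17), and Nfatc3 was not called (0.09). The falls of these lists went with higher levels of the pre-TCR list in neonates (above), and the part of cell composition in them was not tested; in bulk RNA, fewer cells of a type and less RNA per cell cannot be told apart.

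Genes of thymic maturation were lower as well. The mature list, of genes that rise as an SP8 cell prepares to leave the thymus, had 13 of 15 members lower in neonates, 0 higher, and a median of -0.61. Il7r, the survival receptor for IL-7, was at 139, 141, 128 and 128 CPM in adults and 57.3, 46.9, 51.8 and 52.4 CPM in neonates. Every neonatal library lay far under the lowest adult one (log2 -1.36, SE 0.12, adjusted p = 6.00e-11). Gimap3, a GTPase gene needed for survival of T cells, fell most in the list (log2 -1.58, SE 0.12), from 409 ± 19.9 CPM (SD, n = 4) to 136 ± 16.9 CPM (SD, n = 4). Ccr7 fell by 0.66, Klf2 by 0.42 and S1pr1, the exit receptor, by 0.44 on the log2 scale; adult and neonatal libraries of Klf2 overlapped, and its call was lost without any 1 of adult replicates 2, 3 and 4 and neonatal replicates 1 and 2 (-0.29 without adult replicate 2, the value nearest to 0) and with DESeq2. Ms4a4b was not called (-0.17).

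The immature list split. Rag1, a recombinase gene that shuts off after selection, was at 275, 147, 251 and 270.4 CPM in adult and 647, 592, 481 and 489 CPM in neonatal libraries. The neonatal values were all higher (log2 1.23, SE 0.24, adjusted p = 2.01e-04) but small beside the mean of 7609 CPM in neonatal DP cells. Rag2 (log2 1.00, SE 0.17) and Cd24a (log2 0.59, SE 0.09), which encodes the heat stable antigen of immature thymocytes, rose as well, with Cd24a at 118, 73.1, 90.8 and 104 CPM in adults and 148, 147, 143 and 142 CPM in neonates. Markers of a recent selection signal went the other way: Cd69 fell (log2 -0.79, SE 0.13), as did Egr2 (log2 -1.05, SE 0.16), Nr4a3 (log2 -0.68, SE 0.16) and Tox (log2 -0.73, SE 0.10), while Nr4a1 was not called (-0.18). In all, 4 of 14 genes rose and 7 fell. Ccr9, the receptor for the thymic chemokine CCL25, fell from 300, 314, 285 and 268 CPM to 141, 137, 117 and 107 CPM (log2 -1.22, SE 0.11).

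Of the trafficking list, which holds Ccr7, S1pr1, Itgae and Ccr9 as well, more genes fell than rose (13 of 26 against 4). In all 65.4% were called, against 41.6% of all tested genes. Cxcr6, a receptor of tissue-dwelling T cells, was at 56.2, 49.6, 44.1 and 54.0 CPM in adults and 16.4, 13.5, 15.4 and 14.9 CPM in neonates, without overlap (log2 -1.76, SE 0.12). Gpr183, a receptor for oxysterols, fell by 1.44, and the integrin chains Itgb2, Itga4 and Itgal by 0.65, 0.60 and 0.51 on the log2 scale. Those that rose were Ccr8 (log2 1.24, SE 0.28), Ccr4 (log2 0.48, SE 0.14), Plxnd1 (log2 0.78, SE 0.13), which guides cells to the medulla, and Itgb1, whose small rise (0.19) was not called without any 1 of adult replicates 2, 3 and 4 and neonatal replicates 1 and 4 (0.13 to 0.20), among other settings.

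**Figure D3:**
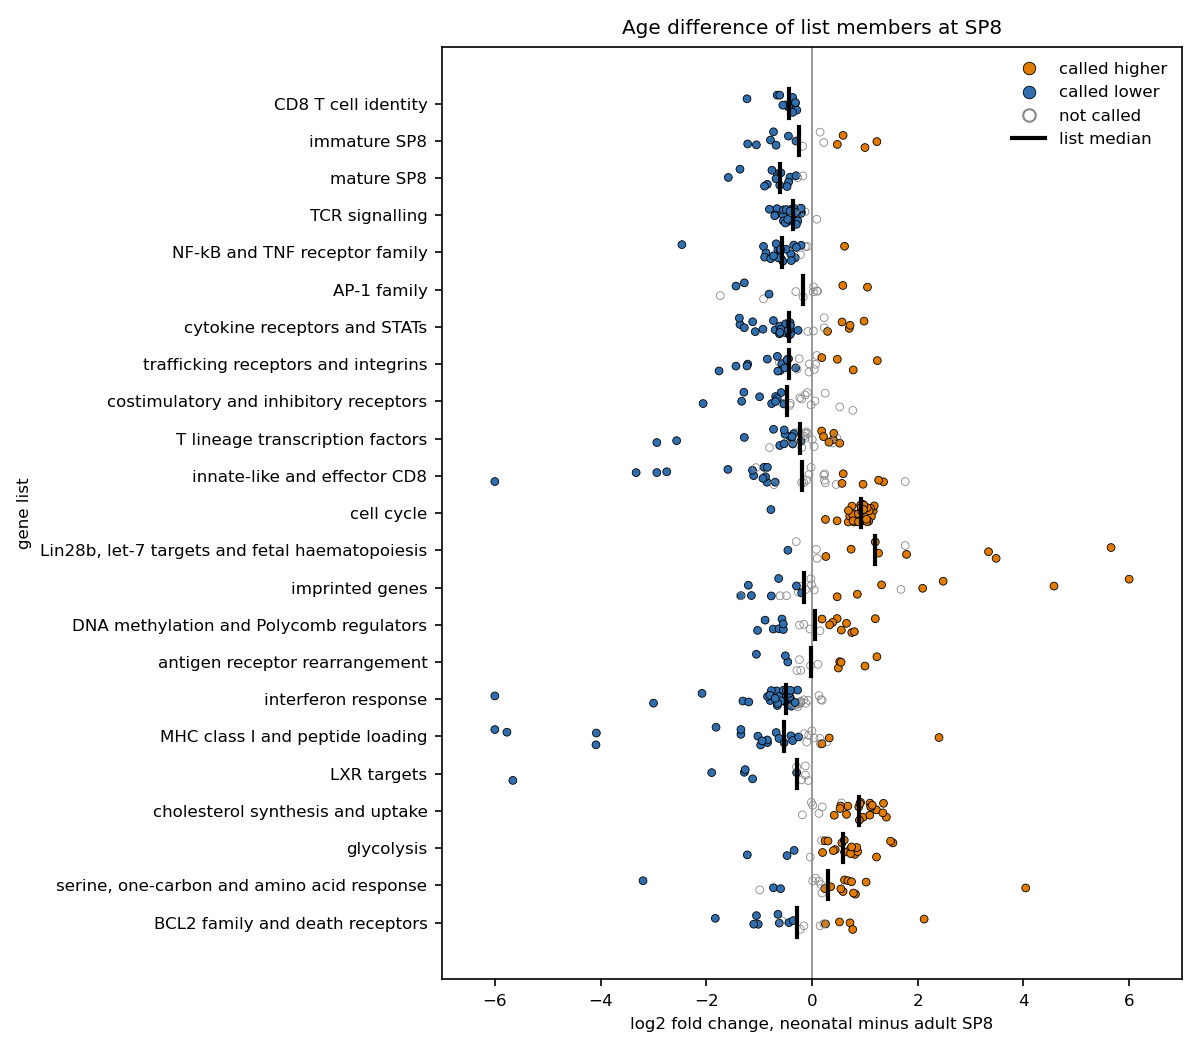
Log2 fold change (neonatal minus adult SP8) of every tested member of the gene lists that was above the floor in at least 1 age, 1 point per gene, filled orange where higher and blue where lower at an adjusted p below 0.05 and open where not called; black bars are list medians, and values beyond 6 on either side are drawn at the edge. Cell cycle, cholesterol and glycolysis genes lie mostly to the right of 0 and antigen receptor, NF-kB and interferon genes to the left.

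Receptors for cytokines were mostly lower in neonates (21 of 31 lower, 5 higher, median -0.43). Beside Il7r, the shared gamma chain Il2rg fell by 0.61, Il2rb by 0.70, the IL-6 signal chain Il6st by 1.07 and Il27ra by 1.28 on the log2 scale. Socs3 (log2 -1.37, SE 0.13) and Cish (log2 -1.12, SE 0.23), inhibitors that cytokine signals induce, fell with them. Ifngr1 was an exception, with 128, 109, 120.0 and 133 CPM in adults and 213, 208, 195 and 192 CPM in neonates, all neonatal values above all adult ones (log2 0.72, SE 0.09), while its partner chain Ifngr2 fell (log2 -0.73, SE 0.08). Il2ra, which encodes CD25, also rose (log2 0.99, SE 0.32) but from a low level (1.92 to 3.80 CPM), which limma-voom did not call, and it stands in the pre-TCR list too.

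Genes of the NF-kB pathway and of the TNF receptor family fell together, 20 of 24 being lower and 1 higher, with a median of -0.57. Traf1, a signal adaptor that NF-kB itself induces, was at 93.7, 84.5, 91.2 and 83.5 CPM in adults against 17.0, 13.9, 16.5 and 16.6 CPM in neonates. No neonatal library came near the adult range (log2 -2.46, SE 0.11, adjusted p = 6.44e-19). The subunits Nfkb2, Relb and Rel fell by 0.65, 0.68 and 0.58 on the log2 scale, and Rela was not called (-0.13). Ltb, which encodes lymphotoxin beta, a signal from SP cells to the medullary epithelium, fell from 559 ± 72.8 to 296 ± 15.7 CPM (SD, n = 4 each). The only member to rise was Tnfrsf25 (log2 0.62, SE 0.15). Fewer AP-1 genes were called (3 lower and 2 higher of 15, or 33.3%, against 41.6% of all tested genes). Among them Bach2, a repressor that keeps T cells quiescent, fell (log2 -1.28, SE 0.17) without overlap, whereas Fos (log2 -1.44, SE 0.57) and Junb (log2 -0.81, SE 0.29) fell with overlapping libraries. Both rested on adult replicate 2, which held 58.7 CPM of Fos where the other 7 libraries held 4.88 to 17.6 CPM. Without it the values were -0.34 for Fos and -0.28 for Junb, neither was called, and 1 AP-1 gene was lower; that count was also 1 without neonatal replicate 1 or 3, which lost the calls of Fos (-1.25 and -1.37) and Junb (-0.70 and -0.78), and 5 without adult replicate 1. The call of Fos was lost without neonatal replicate 4 as well (-1.52) and with limma-voom (-0.89).

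Costimulatory and inhibitory receptors showed 10 of 22 lower and 0 higher. The share called, 45.5%, was near the 41.6% of all tested genes, of which 20.8% were lower and 20.8% higher. The largest fall was that of Tnfrsf18, which encodes GITR, from 19.5 to 29.4 CPM in adults to 5.34 to 6.30 CPM in neonates (log2 -2.06, SE 0.18). Tnfrsf14, the receptor HVEM, fell by 1.33, Cd226 by 1.29 and Vsir, the checkpoint VISTA, by 0.99 on the log2 scale. Cd28 and Pdcd1 were not called (-0.13 and -0.20).

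Among 34 transcription factors of the T lineage, 13 fell and 6 rose (55.9% called, against 41.6% of all tested genes). Id2, an inhibitor of E proteins that supports effector cells, was at 82.8, 108, 65.7 and 88.2 CPM in adults and 12.5, 11.1, 10.8 and 10.7 CPM in neonates, without overlap (log2 -2.94, SE 0.16, adjusted p = 1.95e-16). Its relative Id3, which is induced by receptor signals, rose slightly, with overlapping libraries (log2 0.41, SE 0.10). Zbtb20 fell from 46.2 ± 13.3 to 7.90 ± 2.34 CPM (SD, n = 4 each; log2 -2.56, SE 0.24). Foxo1, which drives Klf2 and Il7r, fell by 0.61. Myb (log2 0.53, SE 0.10), Runx1 (log2 0.40, SE 0.09) and Gata3 (log2 0.32, SE 0.10), factors of earlier thymocytes as well as of SP8 cells, rose. Satb1 and Sox4 were not called (-0.15 and -0.13).

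Genes of innate-like and effector CD8 T cells moved in both directions (5 higher and 13 lower of 31, or 58.1%, against 41.6% of all tested genes). Eomes, which drives the innate-like programme, rose with overlapping libraries (log2 0.59, SE 0.16), at 19.8, 26.2, 20.3 and 20.0 CPM in adults and 34.2, 24.7, 33.4 and 37.5 CPM in neonates. Gzma, a granzyme gene, had 53.0, 44.4, 43.3 and 62.3 CPM in adults and 111, 79.3, 94.2 and 112 CPM in neonates and did not overlap (log2 0.97, SE 0.14). Gzmb rose as well (log2 1.35, SE 0.32), from 1.19 to 2.98 CPM. Other cytotoxic genes fell: Prf1 by 0.88, Nkg7 by 0.91, Ctsw by 0.84, Klrd1 by 1.13, Ccl5 by 2.75 and Klrk1, the receptor NKG2D, by 3.33 on the log2 scale. Gzmk had 2.40, 1.38, 1.36 and 1.89 CPM in adults and was at or under the floor in every neonatal library, at least 9.84-fold lower. Tbx21, which encodes T-bet, was not called (0.46), but was without neonatal replicate 2 (0.58) and by DESeq2.

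Cell cycle genes rose almost as one. Of 46 genes 45 were higher in neonates and 1 lower, where 20.8% of all genes were higher, and the neonatal and adult libraries of all 46 were apart. The size was even, with a median of 0.93 and a highest value of 1.18. Mki67, the proliferation antigen, was at 552, 244, 649 and 646 CPM in adults and 1195, 1121, 890.4 and 963 CPM in neonates. Adult replicate 2 was far the lowest, and the highest adult library still lay under the lowest neonatal one (log2 1.00, SE 0.29, adjusted p = 0.00843). Top2a, Ccnb2, Rrm2 and Cdc25c rose by 0.98, 1.16, 1.08 and 1.18 on the log2 scale, and the replication licensing genes Mcm2 to Mcm7 by 0.71 to 0.82. The one gene that fell was Ccnd2, a D cyclin that growth signals induce (log2 -0.78, SE 0.16), at 736, 754, 827 and 630.0 CPM in adults and 498, 474, 381 and 367 CPM in neonates. Markers of the cycling immature single positive step were higher too. Ptcra, the pre-TCR alpha chain, was at 20.1, 15.4, 18.3 and 22.2 CPM in adults and 31.1, 38.8, 37.5 and 39.7 CPM in neonates (log2 0.95, SE 0.12). Tfrc rose by 0.70 and Notch3 by 0.84. Dtx1, a Notch target, was the only member of that list to fall (log2 -1.01, SE 0.17). Nrarp (1.67 to 3.28 CPM in adults, 4.80 to 7.64 CPM in neonates) and Hes1 (0.713 to 2.02 and 2.07 to 2.85 CPM) did not overlap and lay higher in neonates. The part of immature single positive cells in the cell cycle result was not tested.

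Promoters of cell cycle genes carry known elements, the CHR (letters TTTGAA) and the CCAAT box, and RefSeq windows of 250 bases before to 50 bases after the start (build GRCm38, the mm10 of the submitters' notes) were found for 36 of the 46 genes. On either strand TTTGAA was in 38.9% of them and in 14.8% of the 10812 tested genes with a window; CCAAT was in 77.8% and 42.5%. The E2F letters TTTCCCGC were in 11.1% against 2.32%, and TTTGGCGC in 13.9% against 1.09%. All 14 genes with TTTGAA rose (median 0.99), and so did all 22 without it (median 0.88). In 4 lists with more falls than rises, TTTGAA was in 27.8% (interferon), 14.3% (TCR signalling), 9.09% (MHC class I) and 0% (LXR) of promoters. CCAAT was in 36.1%, 33.3%, 68.2% and 57.1% of the promoters of these lists. Ccnb2 (chr9:70421505-70421804, minus strand) and Cdc20 (chr4:118437294-118437593, minus strand) are shown as cell cycle genes that hold both elements near the start, which capitals mark.
Ccnb2: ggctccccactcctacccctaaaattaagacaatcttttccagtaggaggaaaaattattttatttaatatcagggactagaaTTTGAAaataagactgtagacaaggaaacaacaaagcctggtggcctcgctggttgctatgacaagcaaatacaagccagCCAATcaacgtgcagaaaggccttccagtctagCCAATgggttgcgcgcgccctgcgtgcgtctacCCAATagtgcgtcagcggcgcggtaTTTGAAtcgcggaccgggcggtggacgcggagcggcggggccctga
Cdc20: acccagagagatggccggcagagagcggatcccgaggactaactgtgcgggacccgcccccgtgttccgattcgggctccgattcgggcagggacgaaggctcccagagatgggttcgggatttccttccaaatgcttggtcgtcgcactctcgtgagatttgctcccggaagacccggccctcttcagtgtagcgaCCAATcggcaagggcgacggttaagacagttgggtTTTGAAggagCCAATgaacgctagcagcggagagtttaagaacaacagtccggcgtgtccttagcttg
A match describes the letters only and is no evidence of binding.

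Cholesterol genes formed a pair of opposite groups. Cells make cholesterol through enzymes that SREBP2 turns on when sterol is low, and they export it through transporters that the sterol-sensing receptors LXR turn on when sterol is high. In neonatal SP8 19 of 25 synthesis and uptake genes were higher and 0 lower (median 0.90). Sqle, squalene epoxidase, was at 39.5, 18.7, 37.8 and 43.0 CPM in adults and 86.9, 89.2, 94.2 and 98.7 CPM in neonates, every neonatal library above every adult one (log2 1.41, SE 0.16, adjusted p = 4.73e-08). Cyp51, lanosterol demethylase, rose from 43.9, 23.7, 42.5 and 47.3 CPM to 103, 97.3, 99.0 and 99.8 CPM (log2 1.34, SE 0.14). Hmgcs1, an early enzyme of the pathway, rose by 1.10 and Idi1 by 1.22 on the log2 scale. Srebf2 itself rose less (log2 0.53, SE 0.08), and the 6 genes that were not called included Mvd and Tm7sf2 (0.13 and -0.18).

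Among LXR targets the sign was the reverse, with 6 of 11 lower and 0 higher. Abca1 (chr4:53030787-53159895, minus strand, GRCm38), which exports cholesterol to apolipoproteins, was at 73.9, 66.3, 78.8 and 67.3 CPM in adults and 1.61, 0.953, 0.815 and 2.33 CPM in neonates. The groups were separated by more than an order of magnitude (log2 -5.66, SE 0.21, edgeR adjusted p = 1.41e-20). Abcg1, another sterol exporter, fell from 152, 148, 152 and 129.8 CPM to 37.0, 40.1, 40.3 and 38.5 CPM (log2 -1.90, SE 0.08), and Mylip, a ubiquitin ligase gene, by 1.28 and Arl4c by 1.12 on the log2 scale. Srebf1, Lpcat3 and Smpdl3a, also LXR targets in other tissues, were not called (-0.07, -0.12 and -0.20), nor were the receptors Nr1h2 and Nr1h3 (-0.12 and -0.29). Sterol levels were not measured. Dividing cells also raise sterol synthesis, and cell cycle genes were higher in the same libraries; their part in this result was not tested.

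A window was found for 17 promoters of the synthesis list. CCAAT, the box of NF-Y, a partner of SREBP, was in 16 of them (94.1%, against 42.5% of all). A strict form of the sterol element, TCACNCCAC, chosen after the values were seen, was in 1 (5.88%, against 1.44% of all). The window that held it, Hmgcs1 (chr13:119690101-119690400, plus strand), is shown with that of Cyp51 (chr5:4104648-4104947, minus strand), both matches in capitals on either strand (CCAAT reads ATTGG on the other strand).
Hmgcs1: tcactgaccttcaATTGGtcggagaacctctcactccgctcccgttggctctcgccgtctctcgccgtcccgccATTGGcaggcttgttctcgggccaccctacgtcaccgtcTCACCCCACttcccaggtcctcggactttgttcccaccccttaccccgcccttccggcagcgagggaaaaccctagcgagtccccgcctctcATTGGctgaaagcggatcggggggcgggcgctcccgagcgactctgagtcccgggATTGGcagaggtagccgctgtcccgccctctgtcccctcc
Cyp51: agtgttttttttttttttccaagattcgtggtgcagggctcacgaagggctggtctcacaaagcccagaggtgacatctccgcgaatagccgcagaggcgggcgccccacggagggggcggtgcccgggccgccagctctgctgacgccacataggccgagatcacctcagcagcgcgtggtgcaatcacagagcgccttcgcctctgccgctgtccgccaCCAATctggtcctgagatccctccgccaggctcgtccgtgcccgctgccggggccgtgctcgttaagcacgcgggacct
Hmgcs1 held CCAAT at 4 places and Cyp51 at 1.

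Glycolysis genes rose as well (17 of 22 higher, 3 lower, median 0.59). Gapdh had 1227, 1116, 1007 and 1212 CPM in adults and 1944, 1846, 1959 and 2251 CPM in neonates, without overlap (log2 0.81, SE 0.10). Tpi1 rose further (log2 1.22, SE 0.11), and Pgk1, Ldha and Pkm rose by 0.87, 0.75 and 0.73 on the log2 scale. Pdk1, a kinase that keeps pyruvate out of the mitochondrion, went down (log2 -1.22, SE 0.08), as did the glucose carrier Slc2a3 (log2 -0.47, SE 0.07) and Hk1 (log2 -0.34, SE 0.07). Of 20 genes for serine synthesis, one-carbon metabolism and the amino acid response, 11 rose and 3 fell. Asns, asparagine synthetase, was at 0.389, 0.263, 0.105 and 0.326 CPM in adults and 5.75, 5.30, 4.17 and 2.65 CPM in neonates (log2 4.04, SE 0.44). Pck2, a mitochondrial enzyme of the same stress response, went the other way, with 6.68, 4.47, 4.50 and 4.63 CPM in adults and 0.230, 0.357, 0.634 and 0.920 CPM in neonates (log2 -3.20, SE 0.29). Neither gene overlapped between the ages. Psat1, Mthfd2 and Shmt1 rose by 1.02, 0.78 and 0.82.

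**Figure D4:**
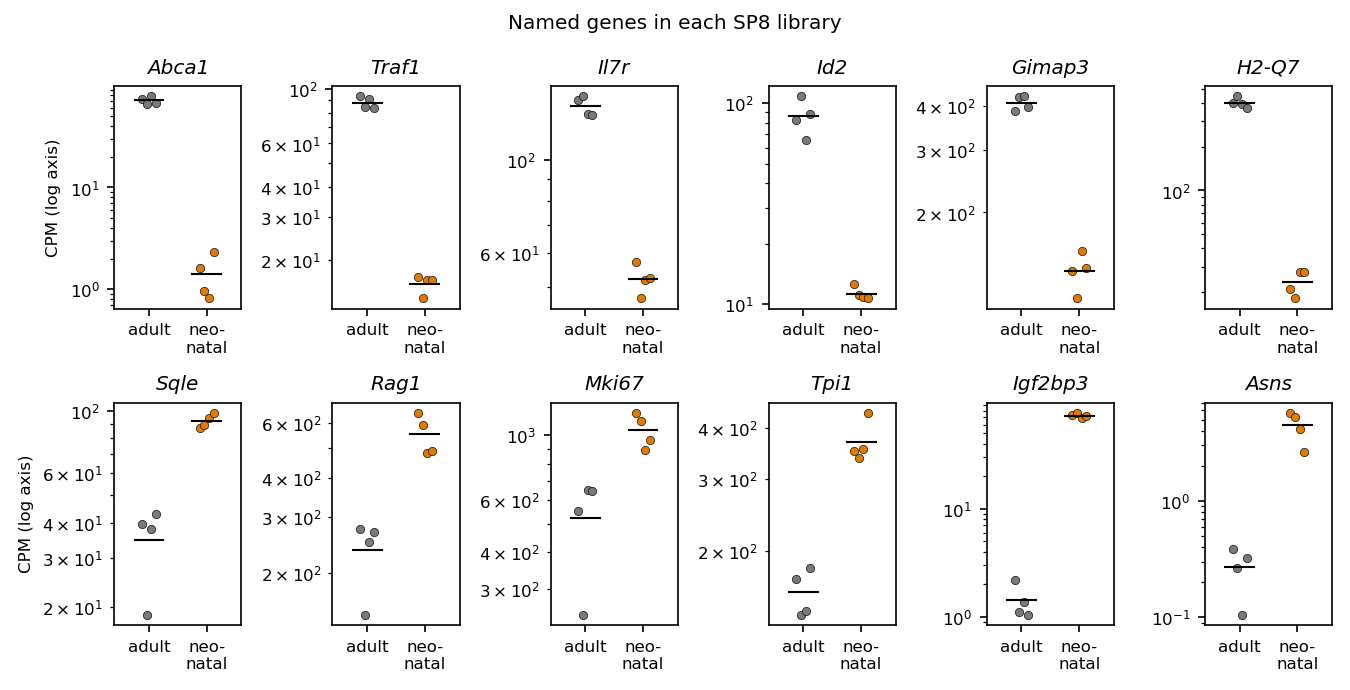
CPM of 12 named genes in each SP8 library (log axis, 1 point per library, adult in grey and neonatal in orange, horizontal bars are group means). In each panel the adult and neonatal points are apart; Abca1, Traf1, Il7r, Id2, Gimap3 and H2-Q7 are lower and Sqle, Rag1, Mki67, Tpi1, Igf2bp3 and Asns higher in neonates.

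Genes of fetal haematopoiesis were among the largest rises, although Lin28b, the fetal RNA-binding protein that blocks let-7 microRNAs, was hardly detected. All adult libraries of Lin28b were at or under the floor and the neonatal ones held 0.747, 0.834, 0.226 and 0.541 CPM, at least 2.98-fold higher. Igf2bp3 (chr6:49085223-49214957, minus strand, GRCm38), an RNA-binding protein gene that let-7 represses, was at 2.20, 1.12, 1.36 and 1.04 CPM in adults and 73.1, 77.3, 68.3 and 71.6 CPM in neonates (log2 5.66, SE 0.18). Plag1, a growth regulator, had 0.795 ± 0.396 CPM in adults and 8.27 ± 2.42 CPM in neonates (SD, n = 4 each; log2 3.34, SE 0.28). The let-7 targets Arid3a (log2 1.26, SE 0.11) and Hmga1 (log2 1.20, SE 0.11) rose, while Igf2bp2 and Nras were not called (-0.30 and 0.10) and Hmga2 had no count in any of the 8 libraries. In all 8 of 14 rose and 1 fell.

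Imprinted genes, of which 1 parental copy is silent and many act in fetal growth, did not move together (7 higher, 7 lower of 25). In all 56.0% were called, against 41.6% of all tested genes. H19, a fetal long non-coding RNA, was at 0.259, 0.394, 0.366 and 1.96 CPM in adults and 19.9, 17.0, 14.1 and 19.2 CPM in neonates (log2 4.58, SE 0.55). Snrpn was at or under the floor in all adult libraries and at 12.2, 10.7, 9.28 and 9.96 CPM in neonates, at least 53.4-fold higher; Snrpn and Snhg14 (log2 2.96, SE 0.25) share a locus, so reads cannot be assigned firmly to either. Cdkn1c, a cell cycle inhibitor, rose from 1.45 to 8.13 CPM (log2 2.48, SE 0.21) and Dlk1 from 0.193 to 0.825 CPM, near the floor. Peg13 (log2 -1.20, SE 0.12) and Ddc (log2 -1.15, SE 0.19) fell.

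Genes of DNA methylation and of Polycomb silencing moved both ways (9 higher and 7 lower of 20, or 80.0%, against 41.6% of all tested genes). Among those that rose were Uhrf1 (log2 1.20, SE 0.12), Dnmt1 (log2 0.75, SE 0.11) and Ezh2 (log2 0.80, SE 0.08). Tet1, Tet2 and Tet3, which oxidise methylcytosine, fell by 0.57, 0.73 and 0.62, as did Ezh1 by 0.89 and Cbx7 by 1.03 on the log2 scale. Of 13 rearrangement genes 5 rose, 3 fell and 5 were not called (61.5% called, against 41.6% of all tested genes), with a median of -0.03. The end-joining genes Xrcc5, Xrcc6 and Lig4 rose by 0.50, 0.55 and 0.52 on the log2 scale, beside Rag1 and Rag2. Among those that fell was Dntt, which adds untemplated bases at the joins. It went from 464, 312, 362 and 429 CPM to 153, 175, 192 and 236 CPM.

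The interferon response list was lower in part: 33 of 49 genes fell and 0 rose (median -0.49). Oas1a, an RNA sensor, was at 14.6, 16.4, 15.7 and 13.6 CPM in adults and 3.50, 3.22, 3.85 and 3.63 CPM in neonates (log2 -2.08, SE 0.19). Iigp1, a GTPase induced by interferon gamma, fell further, from 31.9, 29.0, 31.3 and 23.9 CPM to 3.50, 2.26, 3.76 and 4.93 CPM (log2 -3.00, SE 0.32), and Slfn5 and Slfn8 fell by 1.31 and 1.20 on the log2 scale. Ifi44 had 7.13, 4.40, 7.64 and 6.59 CPM in adults and was at or under the floor in neonates, at least 36.0-fold lower. Genes that interferon induces most widely, Isg15, Ifit1, Ifit2, Mx1, Rsad2 and Oasl2, were not called (0.19, -0.47, 0.13, -0.43, -0.45 and 0.17). With the SP8 libraries fitted alone, Ifit1, Mx1 and Rsad2 were called lower (-0.48, -0.44 and -0.46), and by limma-voom, as was Ifit1 without adult replicate 4 (-0.56). Irf9 and Irf7, which carry the signal, fell by 0.66 and 0.60.

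The core of the interferon-stimulated response element, (GAAA, 2 bases of any kind and GAAA, on either strand) was in 23 of 36 interferon promoters with a window (63.9%), against 3.89% of all tested genes. Of the 23 genes with it and the 13 without it, 15 of the former and 8 of the latter were called lower, with medians of -0.45 and -0.60, a difference that was not tested. Oas1a (chr5:120907476-120907775, minus strand) and Slfn5 (chr11:82951852-82952151, plus strand), among the larger falls, are shown with the element in capitals; in Oas1a it occurs at 2 overlapping places.
Oas1a: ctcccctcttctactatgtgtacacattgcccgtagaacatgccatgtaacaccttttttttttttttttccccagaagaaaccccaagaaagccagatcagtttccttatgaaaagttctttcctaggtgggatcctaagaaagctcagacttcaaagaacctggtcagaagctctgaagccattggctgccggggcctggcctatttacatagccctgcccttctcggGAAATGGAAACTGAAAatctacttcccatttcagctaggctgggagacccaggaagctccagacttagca
Slfn5: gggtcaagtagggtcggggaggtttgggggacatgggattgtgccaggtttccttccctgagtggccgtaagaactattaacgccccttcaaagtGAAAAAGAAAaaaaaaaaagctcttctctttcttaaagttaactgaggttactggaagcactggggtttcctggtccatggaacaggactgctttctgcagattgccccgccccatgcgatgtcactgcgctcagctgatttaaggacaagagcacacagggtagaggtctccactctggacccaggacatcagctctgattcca
Both windows hold the element on the strand of the gene.

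MHC class I genes fell with it (18 lower and 3 higher of 29). H2-K1, a classical class I heavy chain, was at 2703, 3197, 2592 and 2669.5 CPM in adults and 1088, 957, 1168 and 1182 CPM in neonates, without overlap (log2 -1.34, SE 0.12). H2-D1 fell by 0.97, the light chain B2m by 0.84, the peptide carrier Tap1 by 0.62 and Nlrc5, the class I transactivator, by 1.34 on the log2 scale. The Qa-2 genes fell far more. H2-Q7 was at 398, 446, 396 and 369 CPM in adults and 21.1, 18.1, 27.6 and 27.4 CPM in neonates (log2 -4.09, SE 0.18), and H2-Q6 (chr17:35424850-35430055, plus strand, GRCm38) at 69.5, 86.1, 80.9 and 76.1 CPM and 1.32, 1.07, 0.860 and 1.08 CPM (log2 -6.18, SE 0.24). Qa-2 is a surface marker that SP8 cells gain last before they leave. H2-Q5 (log2 -5.77, SE 0.23), H2-Q4 (log2 -1.81, SE 0.12) and H2-Q10 (log2 -4.08, SE 0.67) fell as well, H2-Q1 was not called (0.16), and H2-T3, the thymus leukaemia antigen, rose from 1.25 to 6.67 CPM.

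Counts of single Qa-2 genes are uncertain, because the genes are close copies and the handling of reads that match several genes is not given in the sources used here. Of all stretches of 50 bases in the H2-Q6 transcripts, 27% also occurred in another of 12 class I genes, and for H2-Q5 and H2-Q7 the shares were 35.6% and 24.5%. The promoter windows of H2-Q6 (chr17:35424600-35424899, plus strand) and H2-Q7 (chr17:35438905-35439204, plus strand) are shown to make the likeness visible. They overlapped over 261 aligned positions, of which 254 were identical (97.3%), and capitals mark the 6 mismatches and the 1 inserted base.
H2-Q6: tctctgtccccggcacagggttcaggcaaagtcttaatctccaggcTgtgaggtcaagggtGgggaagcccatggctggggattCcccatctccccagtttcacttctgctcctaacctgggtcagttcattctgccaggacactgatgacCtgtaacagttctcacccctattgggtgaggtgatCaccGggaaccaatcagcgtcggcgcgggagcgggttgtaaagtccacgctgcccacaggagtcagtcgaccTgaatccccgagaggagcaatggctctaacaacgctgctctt
H2-Q7: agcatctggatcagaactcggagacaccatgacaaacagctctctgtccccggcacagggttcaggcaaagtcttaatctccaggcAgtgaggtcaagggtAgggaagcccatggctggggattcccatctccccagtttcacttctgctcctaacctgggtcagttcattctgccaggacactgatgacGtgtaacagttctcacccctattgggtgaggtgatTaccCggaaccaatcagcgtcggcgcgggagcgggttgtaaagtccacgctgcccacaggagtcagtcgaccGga
Nothing was drawn from these letters on control of the genes.

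Among 18 genes of the BCL2 family and death receptors 5 rose and 8 fell (72.2% called, against 41.6% of all tested genes). Bcl2, the survival factor that IL-7 maintains, was at 234, 258, 247 and 236 CPM in adults and 120.5, 131, 119.6 and 110.1 CPM in neonates, without overlap (log2 -1.02, SE 0.09). Mcl1 fell (log2 -0.62, SE 0.09), and Bcl2l1, the survival factor of DP cells, rose (log2 0.72, SE 0.09). Of the killers, Pmaip1 rose (log2 2.12, SE 0.19) and Bbc3 fell (log2 -1.10, SE 0.15), and Bcl2l11, which removes self-reactive cells, was not called (0.15) but was without adult replicate 3 (0.23).

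Outside these groups, the largest rises among genes of at least 10 CPM without overlap included Evc (chr5:37289098-37336894, minus strand, GRCm38), a gene of the primary cilium, which had no count in any adult library and 18.0, 20.6, 17.1 and 16.2 CPM in neonates, at least 91.3-fold higher. Tln2, a talin that links integrins to actin, was at 0.713, 0.197, 0.105 and 0.326 CPM in adults and 54.6, 57.2, 38.4 and 40.9 CPM in neonates (log2 7.17, SE 0.25). The neighbour of Evc, Crmp1 (chr5:37241940-37292133, plus strand, GRCm38), a cytoskeletal gene, rose as well, from 1.62, 3.35, 2.56 and 1.56 CPM to 54.0, 56.3, 49.8 and 51.4 CPM (log2 4.53, SE 0.18). The annotated spans of Evc and Crmp1 overlap on opposite strands, and since the use of strand in counting is not given, reads of the shared stretch cannot be assigned. Nes (log2 4.78, SE 0.28), Wscd1 (log2 3.20, SE 0.21), Fbln1 (log2 3.02, SE 0.14) and the linker histone gene H1f0 (log2 2.95, SE 0.26) followed. Cd163l1, a scavenger receptor gene of gamma-delta T cells, rose from 2.59, 3.22, 3.09 and 2.74 CPM to 66.8, 55.9, 66.6 and 53.2 CPM (log2 4.37, SE 0.17). The gamma-delta genes Sox13 (log2 2.59, SE 0.21) and Blk (log2 1.82, SE 0.35) rose with it and Trdc, the delta constant region, by 0.38, whereas the gamma constant regions Tcrg-C2 (log2 -0.90, SE 0.18) and Tcrg-C4 (log2 -2.60, SE 0.32) fell, and Il17a did not exceed 0.345 CPM in any library. In splenic CD8 cells Cd163l1 was higher still in neonates (29.2 ± 7.52 CPM in adults and 244 ± 24.5 CPM in neonates, SD, n = 4 each), while Trdc stood there at 4.83 ± 0.427 and 8.90 ± 0.837 CPM. The part of gamma-delta cells in the SP8 level of Cd163l1 was not tested.

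The largest falls outside the lists were Tmie, from 73.0 ± 3.11 to 2.18 ± 0.759 CPM (SD, n = 4 each; log2 -5.03, SE 0.19), Vmn2r97 (log2 -4.69, SE 0.19), whose counts are uncertain because its family holds near copies, Gprin3 (log2 -3.94, SE 0.23), Fgf13 (log2 -3.66, SE 0.21), the scaffold gene Tanc1 (log2 -3.51, SE 0.14), the amino acid carrier Slc6a19 (log2 -3.41, SE 0.16) and Foxd2os (log2 -3.62, SE 0.28), an annotated antisense RNA whose counts are uncertain for the same lack of strand. Ranked by the difference in CPM, abundant genes came first. Ptma, a chromatin protein of dividing cells, rose from 2932 ± 224 to 4787 ± 90.4 CPM, and Hsp90ab1, Hnrnpa3, Ncl, Eif5a, Hnrnpa2b1 and Hmgb2 rose by 0.53, 0.68, 0.69, 0.70, 0.48 and 0.95 on the log2 scale. Malat1, a nuclear long non-coding RNA, fell from 1157, 1211, 1282 and 1037 CPM to 474, 412, 281 and 297 CPM (log2 -1.68, SE 0.25). The groups did not overlap. Chd3, a chromatin remodeller, was at 947, 782, 946 and 856 CPM in adults and 223, 219.7, 219.6 and 269.5 CPM in neonates (log2 -1.92, SE 0.09), a tight and separate pair of groups. Shisa5, Arhgef1, an exchange factor for small GTPases, and Ptprc, the phosphatase CD45, completed the largest falls in CPM together with H2-K1, H2-D1 and B2m, and fell by 0.82, 0.57 and 0.54 on the log2 scale.

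The age difference at SP8 was then tested against the age difference at each other stage, as a difference of differences in the same fit. It differed from that of DN cells in 8.07% of genes, of DP cells in 21.8% and of splenic CD8 cells in 15.3%. The SP8 value was the more positive in 6.41%, 11.1% and 5.15% of genes against DN, DP and splenic CD8, and the more negative in 1.66%, 10.7% and 10.2%. Against DP the calls divided into 1819 more positive and 1769 more negative at SP8, a balance that shifted to 1291 and 2257 with total-count scaling. Genes called in all 3 tests with 1 sign, and called at SP8 with that sign, numbered 21 higher (0.128%) and 72 lower (0.437%); the 3 tests share the SP8 libraries and are not independent. With a 2-fold difference required as well these were 1 and 15, and with DESeq2 39 were higher. Of the single tests, the 274 genes more negative than at DN became 468 with DESeq2 and 454 with the replicate number as a block within each age, and the 847 more positive than in splenic CD8 became 1279 with DESeq2.

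Among the genes whose fall was larger at SP8, H2-Q6 and Abca1 stood furthest apart from the other stages, by the smallest of the 3 differences (-2.44 and -2.06, both against DN). The means of Abca1 were 36.3 ± 9.35 CPM in adult and 3.00 ± 0.657 CPM in neonatal DN cells, 73.2 ± 8.42 and 48.8 ± 6.13 CPM in DP, 71.6 ± 5.87 and 1.43 ± 0.693 CPM in SP8, and 54.3 ± 7.12 and 10.6 ± 2.01 CPM in splenic CD8 cells (SD, n = 4, except 3 for adult DN). The adult mean was lowest at DN, and the neonatal mean was lowest at SP8, where the range (0.815 to 2.33 CPM) met that of neonatal DN (2.07 to 3.51 CPM). The difference of log2 differences was -5.07 against DP (SE 0.26), -3.29 against splenic CD8 (SE 0.27) and -2.06 against DN (SE 0.31). Against DP the value of H2-Q6 (-6.42) has no firm size, since DP was near the floor, and it was not called without neonatal DP replicate 1. H2-Q6 did not exceed 0.128 CPM in adult or 0.238 CPM in neonatal DP libraries, and reached 249 ± 23.2 and 26.5 ± 8.83 CPM in adult and neonatal splenic CD8 cells. Gpr55, a lipid receptor gene, had its highest mean in adult SP8 cells (49.0 to 52.6 CPM over its libraries, against 7.24 ± 1.06 CPM in neonatal SP8, 1.51 ± 0.660 CPM in adult DP and 16.1 ± 3.54 CPM in adult splenic CD8). Izumo1r, a folate receptor family gene, also had its highest mean there, with 56.1 ± 11.9 and 24.1 ± 1.90 CPM in adult and neonatal SP8 but 31.2 ± 4.09 and 33.1 ± 3.85 CPM in splenic CD8. Ggt5 and Car2, the gene of a carbonic anhydrase, completed the 6 with the largest differences among genes not annotated as pseudogenes. The TCR signalling genes Fyn, Rasgrp1 and Cd6 met the same criterion, as did Ccr9, Traf1, Il27ra, Slamf1, Slc2a3 and H2-Q5 of the other lists (H2-Q5, annotated as a polymorphic pseudogene, with -1.78 against DN as its smallest difference).

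Among genes whose rise was larger at SP8, Pim1, a survival kinase that cytokine signals induce, had means of opposite order at SP8 and at the other stages. Its mean was lower in neonates at DN (116 to 84.4 CPM), DP (113 to 92.6 CPM) and splenic CD8 (115 to 65.0 CPM), and higher at SP8 (50.8 ± 10.5 to 87.3 ± 6.43 CPM, SD, n = 4 each). Cyp51 was 39.3 CPM in adult and 99.7 CPM in neonatal SP8, and 29.6 and 17.6 CPM in splenic CD8, where the sign was opposite. Of the 25 synthesis and uptake genes, 18 had a more positive age difference at SP8 than in splenic CD8 cells, 11 than in DP cells and 2 than in DN cells. Crmp1, Tube1, a tubulin, Cgas, the DNA sensor cGAS, and Eef2k, a kinase of translation, were the others of the leading 6. Eef2k rose little at SP8 (log2 0.21, SE 0.08, edgeR adjusted p = 0.0305), and was not called there without adult replicate 2 (0.16) or 3 (0.19) or neonatal replicate 4 (0.15), or with total-count scaling, while its means were lower in neonates at DN (183 to 129.7 CPM), DP (40.2 to 30.2 CPM) and splenic CD8 (29.2 to 18.0 CPM). Ifngr1 and Lig4 of the lists met the criterion too. Some of these differences were near the threshold: that of Cyp51 against DN (0.62) was lost without any 1 of 8 libraries (lowest 0.45) and that against DP without either of 2 (lowest 0.55), that of Cgas against DN (0.67) without any 1 of 9 (lowest 0.60) and against DP without adult DP replicate 1 (0.67), and that of Car2 against splenic CD8 (-1.11) without any 1 of 3 (nearest to 0 at -0.86).

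**Figure D5:**
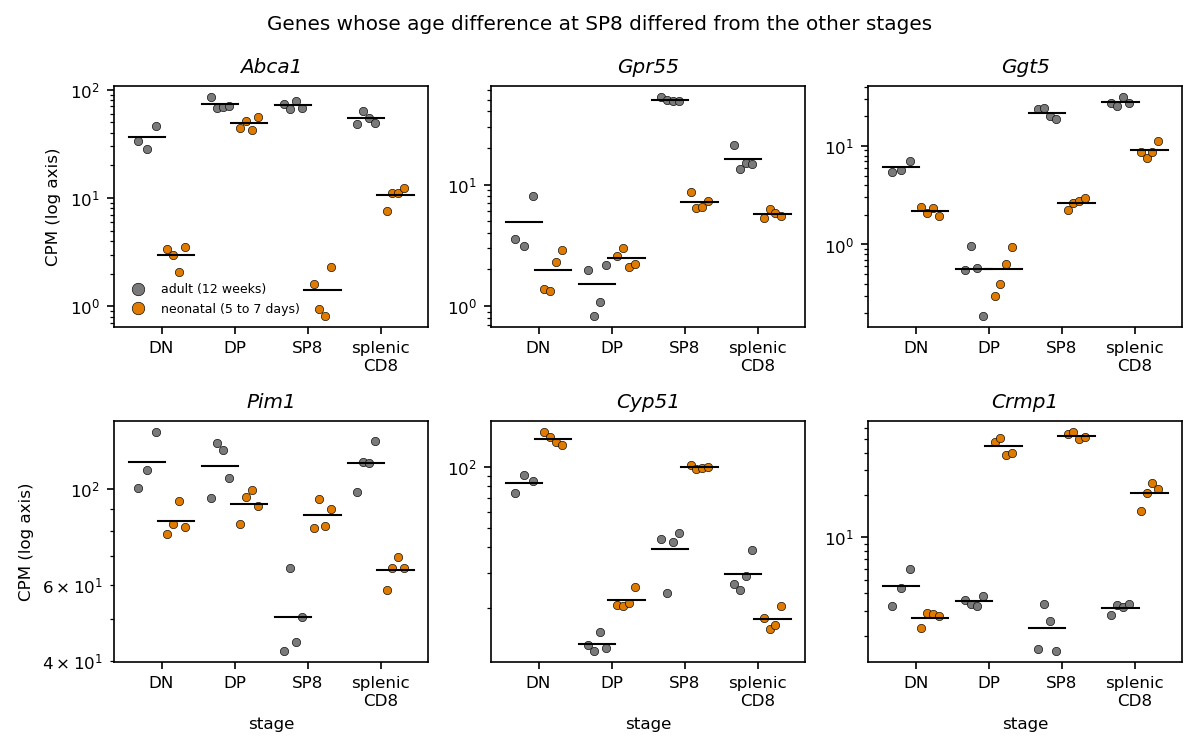
CPM of 6 genes whose age difference at SP8 differed from that at each other stage, over all 4 stages (log axis, 1 point per library, adult in grey and neonatal in orange, horizontal bars are group means, values under 0.1 drawn at 0.1). Abca1 has its lowest neonatal mean at SP8, and the mean of Pim1 is higher in neonates at SP8 and lower at the other 3 stages.

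Other lists stood apart from one stage more than from the rest. In the interferon list 36 of 49 genes had a more positive age difference at SP8 than at DN and 1 a more negative one, and 14 and 1 did so against splenic CD8. Of these 49 genes 33 were called lower and 0 higher at SP8, so a more positive difference is no rise there. Over all tested genes 6.41% were more positive at SP8 than at DN and 5.15% than in splenic CD8. In the cell cycle list the age difference was more negative at SP8 than in splenic CD8 for 21 genes and more positive for 4; against DP it was more positive for 11 and more negative for 1. The mean of Mki67 was 5.77 CPM in adult and 79.0 CPM in neonatal splenic CD8, far under the 523 and 1042 CPM of SP8. Of 26 TCR signalling genes 17 had a more negative age difference at SP8 than in splenic CD8 cells. Glycolysis genes had a more positive age difference at SP8 than at DP in 14 of 22 cases and a more negative one in 1.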

How the data were processed

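Polyadenylated RNA of 31 sorted T cell libraries was sequenced, 8 of them SP8. The authors deposited raw read counts per gene for each library, identified by Ensembl gene; per the submitters' processing notes, Trim Galore, STAR 2.7.10a and the build mm10 were used. The counting tool, its annotation, the use of strand and the handling of reads that match several genes are not given in the sources used here. Of 53700 identifiers, 97% were paired with a symbol. Coordinates are from the GRCm38 annotation, and promoter windows from RefSeq, GRCm38.

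Counts were tested with edgeR 4.0.16 (R 4.3.3): TMM scaling, a filter on low counts over the 8 groups of age and stage (minimum count 10, total 15), 1 mean per group over all 31 libraries, and a robust quasi-likelihood F-test with Benjamini-Hochberg adjustment over 16461 genes. Standard errors (SE) were obtained from the fold change and its F statistic. Genes with at most 3 counts in every library of a group are at the floor, and a bound uses 3 counts per library. The steps were tested on simulated data with 200 changed genes.

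Genes named are members of the lists, the 12 highest and 12 lowest fold changes at 10 CPM or more without overlap, the 8 largest differences in CPM each way, and the 6 genes each way most apart from the other stages; predicted genes, pseudogenes and receptor segments were left out of the last 3 sets, and not every gene that qualified is described. The members and lists were chosen with earlier results of these data known. Alternatives were DESeq2 1.42.0, limma-voom (limma 3.58.1), other scalings and filters, SP8 libraries alone, replicate blocks, a 2-fold requirement and leaving out libraries. The deviations of same-numbered neonatal and adult SP8 libraries correlated weakly (r = 0.0161, 0.0935, 0.0271 and 0.124 across genes for replicates 1 to 4). Neonatal replicates 2 and 4 were best matched to their own number, and replicates 1 and 3 were not. The labels state no pairs, so the numbers were not taken as pairs in the main fit, and a fit with them as a block is given below. No 2 SP8 libraries agreed within sampling noise. Adult DN replicate 1 was not analysed here, and some list members are not reported here by name.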

Additional observations from a re-analysis of the deposited data

Results flagged for a closer look

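Within a group of 4 libraries, 1 library stood apart from the other 3 for 28 of the 458 groups formed by the genes named here at each age (its gap to the next library took more than 0.829 of the range of the group). For independent normal values about 1 in 20 groups would be set apart in this way, a rate that was not checked on these counts. Lin28b and Snrpn in adults and Igkc in neonates were at or under the floor, where few counts in 1 library suffice. Adult replicate 1 was the highest of its age for Gpr55 (52.6 CPM), Igf2bp2 (6.09 CPM) and Pck2 (6.68 CPM). Adult replicate 2 was the highest of its age for Eomes (26.2 CPM), Irf7 (159 CPM) and Junb (323 CPM). Adult replicate 2 was the lowest of its age for Cdc25c (3.88 CPM), Rrm2 (216 CPM) and Top2a (391 CPM). Adult replicate 3 was the highest of its age for H2-Q5 (76.4 CPM), Lin28b (0.157 CPM), Snrpn (0.0523 CPM) and Tet3 (303 CPM). Adult replicate 4 was the highest of its age for Ccl5 (10.6 CPM), H19 (1.96 CPM) and Igkc (7.56 CPM). Adult replicate 4 was the lowest of its age for Ifngr2 (45.5 CPM). Neonatal replicate 1 was the highest of its age for Cd28 (91.3 CPM) and Grap2 (429 CPM). Neonatal replicate 1 was the lowest of its age for Car2 (0.747 CPM), Ighm (370.4 CPM) and Mcl1 (328 CPM). Neonatal replicate 2 was the highest of its age for Runx1 (85.7 CPM). Neonatal replicate 2 was the lowest of its age for Traf1 (13.9 CPM). Neonatal replicate 3 was the highest of its age for Fyn (291 CPM). Neonatal replicate 3 was the lowest of its age for Pdcd1 (13.5 CPM). Neonatal replicate 4 was the highest of its age for Chd3 (269.5 CPM) and Igkc (0.108 CPM).

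For 24 named genes the age difference at SP8 differed from that at DN, at DP and in splenic CD8 cells with the same sign in all 3 tests of the difference (edgeR quasi-likelihood test, adjusted p below 0.05), as described above. The smallest of the 3 log2 differences was positive for Cgas (0.67), Crmp1 (0.88), Cyp51 (0.62), Eef2k (0.62), Ifngr1 (0.54), Lig4 (0.44), Pim1 (1.07) and Tube1 (0.71). It was negative for Abca1 (-2.06), Car2 (-1.11), Ccr9 (-0.89), Cd6 (-0.48), Fyn (-0.47), Ggt5 (-1.39), Gpr55 (-1.31), H2-Q5 (-1.78), H2-Q6 (-2.44), Il27ra (-0.41), Izumo1r (-1.30), Rasgrp1 (-0.39), Slamf1 (-0.53), Slc2a3 (-0.59), Tanc1 (-0.55) and Traf1 (-0.87). The 3 tests share the SP8 libraries. Those of Cyp51, Cgas, Car2 and H2-Q6 were lost in at least 1 test without single libraries, as given above, and that of Tanc1 against splenic CD8 was lost without adult SP8 replicate 3 (-0.48) or 4 (-0.53), without other libraries and with DESeq2 (-0.50).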

How the results depend on the processing

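Of 301 gene-level results, 276 stayed on their side of the threshold in every alternative run, and 0 changed sign. Calls at SP8 numbered 6059 (without adult replicate 3) to 7228 (DESeq2), and 44.2% (total-count scaling) to 52.4% (RLE size factors) of them were higher in neonates. No called list member changed sign under RLE, total-count scaling or DESeq2. Requiring a 2-fold difference left 702 genes higher and 1083 lower at SP8, 594 and 91 against DN, 201 and 552 against DP, 268 and 535 against splenic CD8, and 1 and 15 against all 3. With it 13 cell cycle, 9 cholesterol, 3 glycolysis, 2 serine, 2 rearrangement and 1 DNA methylation gene were higher, and 8 MHC class I, 7 innate-like, 5 interferon, 5 cytokine receptor, 4 trafficking, 4 BCL2, 3 costimulatory, 3 transcription factor, 2 immature, 2 mature, 1 NF-kB and 0 TCR signalling genes were lower. DESeq2 gave 1279 genes more positive than in splenic CD8, 468 more negative than in DN, 39 more positive than in all 3 stages, and 5 AP-1 genes lower. AP-1 genes called lower numbered 6 with no filter, 1 with SP8 libraries alone, 5 without adult replicate 1 at every stage, and 1 to 5 without single SP8 libraries. The cause of these changes was not tested. Depth limits genes near 3 counts per library, such as Lin28b and Dlk1.

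With the replicate number as a replicate block, the 8 SP8 libraries alone gave 6395 calls, against 6466 without it. A replicate block within each age gave 1879 calls against DN, 4770 against DP and 3487 against splenic CD8, with 454 more negative than in DN, the only one of these directions to move by over 1.5 times. Across stages, the deviations of same-numbered adult libraries correlated by 0.0815 to 0.249, and in 11 of 11 pairs the best match was the same number; for the 3 pairs of adult SP8 with DN every correlation was over 0.1. Those of neonates correlated by 0.0652 to 0.172, with 8 of 12 pairs best matched to their own number. This is a hint of pairing from the data, stronger in adults, that the labels do not state.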

Other observations

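By kind of transcript, fewer antigen receptor and immunoglobulin segments were higher than lower in neonates (9 higher and 39 lower of 217 tested). The same held for long non-coding genes but not for pseudogenes (78 higher and 64 lower of 1025). The shares called were 22.1%, 22.7% and 13.9%, all under the 41.6% of all tested genes. Of all tested genes 20.8% were higher and 20.8% lower. By exonic length, the longest genes held more falls than rises (1234 higher and 1539 lower of 5472, median log2 fold change -0.05), and the middle and short genes more rises than falls (1350 and 1144 of 5471, and 834 and 732 of 5474). Of the genes called at SP8, 1297 were not called for age at DN, DP or in splenic CD8 cells, which is no test of a difference between the stages; for 23 of them all 3 differences were called as well with the sign of SP8.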
